A study of Danio rerio with 12 samples.

Results

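Among 153 distinct genome fragments that the authors listed for a methylation difference in triclosan-exposed zebrafish larvae, 5 were assigned to genes of ion channels or of a phospholipid flippase. The genes were kcnc3b, cacna2d2, TRPC7 (1 of 4), TRPC7 (3 of 4) and atp8b5a, matched by the exact name in the tables, and they accounted for 6 of the 171 entries because atp8b5a was listed in 2 comparisons. The 5 were grouped by function from lists that already rested on these group levels, so their levels, differences, intervals and p-values are given as a description and are not independent evidence. The names TRPC7 (1 of 4) and TRPC7 (3 of 4) stand for different gene copies as the tables name them.

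The larvae were AB strain zebrafish, Danio rerio, kept singly from the egg for 7 days in 100 µg/L triclosan, in 50 µg/L triclosan or in control medium without it, and then pooled by 24. Triclosan is an antibacterial agent of consumer products. Each of the 3 groups had 4 libraries made by reduced representation bisulfite sequencing. That method cuts DNA with MspI, keeps short CpG-rich pieces, and lets methylated cytosines be told from unmethylated ones by bisulfite treatment. The tables hold 1 level per group for each fragment, so single libraries and their read coverage could not be described and the depth behind each level is unknown. Whole larvae were pooled, so a level between 0 and 100% cannot be split into the cells, larvae or gene copies that carried the methylated form.

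Voltage-gated potassium channels repolarise neurons and muscle after an action potential, and the auxiliary subunits of voltage-gated calcium channels carry the pore to the membrane and set its current. Channels of the TRPC family let calcium and sodium into the cell downstream of receptors that activate phospholipase C. P4-type ATPases move phospholipids from the outer to the inner leaflet of a membrane and so keep the leaflets different. Methylation of cytosine in CpG pairs covers most of a vertebrate genome outside CpG islands, and its relation to transcription differs between promoters and the inside of genes.

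At 50 µg/L, the fragment in kcnc3b was more methylated than in control, and the fragment in atp8b5a was less methylated. At 100 µg/L, the fragment in cacna2d2 was less methylated than in control. Between both doses, the fragments assigned to atp8b5a, TRPC7 (1 of 4) and TRPC7 (3 of 4) all had higher levels at 100 than at 50 µg/L. Absolute differences ran from 15.45 to 30.55 percentage points, where every listed fragment of the series had at least 15 points.

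**Figure D1:**
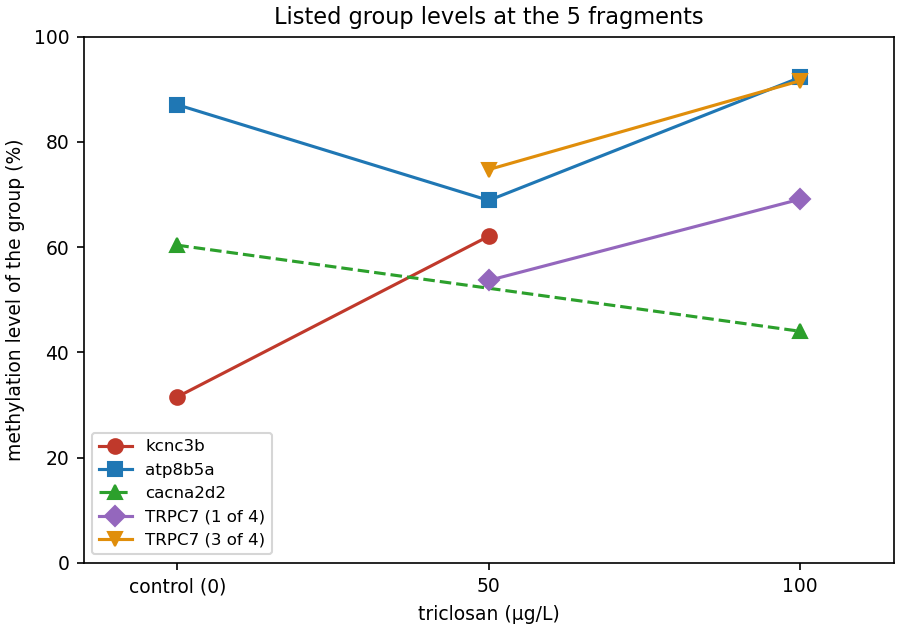
Methylation level in percent (y axis) of each group at the 5 fragments against triclosan in µg/L (x axis), 1 point for each group level in the authors' deposited tables; the dashed line joins control and 100 µg/L where no level at 50 µg/L was listed. The atp8b5a fragment alone has all 3 levels, at 87.1% in control, 68.9% at 50 µg/L and 92.3% at 100 µg/L.

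The gene kcnc3b encodes a voltage-gated potassium channel of the Kv3 class, which in mammals closes fast and lets neurons fire at high rates. In the authors' deposited table its fragment was methylated at 62.1% in 3 libraries at 50 µg/L, against 31.5% in 4 control libraries. The gain was 30.6 points, with a standard error (SE) of 4.58 points implied by the authors' F statistic and a 95% interval of 18.8 to 42.3 points. Of the 55 fragments listed for 50 µg/L against control, 1 had a larger difference, and 6 had a lower control level, by the authors' deposited table.

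The pooled standard deviation (SD) between libraries that F implies at kcnc3b was 5.99 points, close to the median of 6.18 points over the 55. The difference was thus 5.10 times the spread between libraries, a ratio that 2 of the 55 exceeded. Levels at 100 µg/L were not listed for this fragment in either of the other tables, so its behaviour at the higher dose is not described here.

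The kcnc3b fragment lies on chromosome 24 at 38601692 to 38601904 (build Zv9), in an intron of a gene that spans 38593472 to 38682990. It sits 8.43 kb from the end of the gene with the lower coordinate, at 9.30% of the gene's span of 89.5 kb. With 213 bp it was the longest of all 153 listed fragments, and with 20 CpG sites it shared the highest number with 1 other. Its density of 9.39 CpG sites per 100 bp compares with a median of 5.33 over all 153, and 16 fragments were denser. The CpG island listed for it, of 499 bp, lies outside the gene at 29.1 kb from the fragment, measured to the island's farther edge. An island listed for a fragment is not always the nearest one. For casz1 (chromosome 23, 29244346 to 29244424) it was 194 kb away. A nearer island, at 29187328 to 29187788, was listed for another entry on that chromosome.

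**Figure D2:**
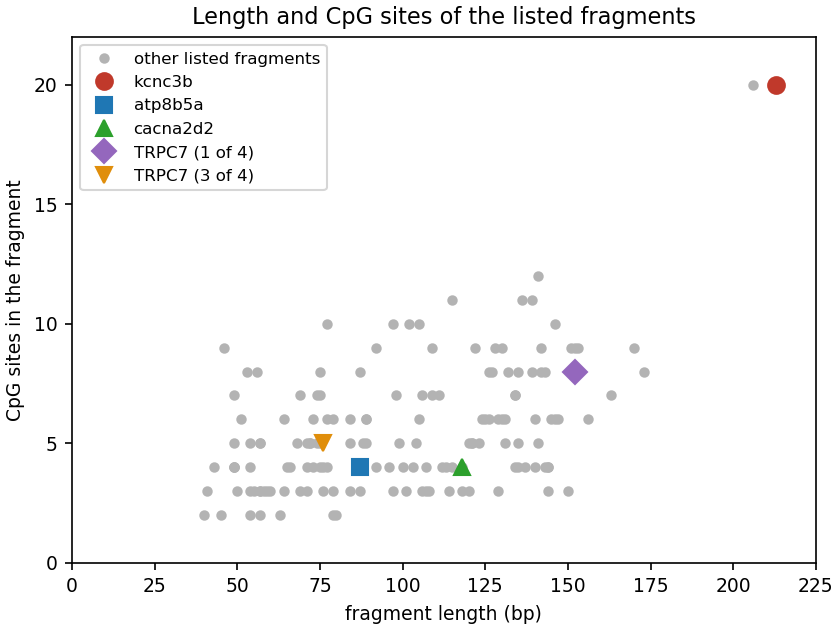
Fragment length in bp (x axis) and number of CpG sites (y axis) for all 153 listed fragments, with those assigned to the 5 genes in colour and all others in grey. The kcnc3b fragment, with 213 bp and 20 CpG sites, is at the upper right, and the other 4 coloured fragments have 4 to 8 sites.

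The gene atp8b5a encodes a P4-type ATPase of the ATP8B class, whose mouse counterpart is known from the testis. In the authors' deposited table its fragment was methylated at 68.9% in 3 libraries at 50 µg/L, against 87.1% in 4 control libraries. The loss was 18.2 points, with an implied SE of 4.38 points and a 95% interval of −29.4 to −6.93 points.

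Between both doses, atp8b5a stood at 92.3% in 4 libraries at 100 µg/L, against the same 68.9% in 3 libraries at 50 µg/L, according to the authors' deposited table. This gain was 23.4 points with an implied SE of 2.15 points and a 95% interval of 17.9 to 28.9 points. Its unadjusted p of 0.000114 was the smallest of the 99 in the authors' deposited table, and 11 of the 99 had a larger difference. The implied pooled SD between libraries was 2.81 points, against a median of 6.40 points, and 95 of the 99 had a larger SD. The p depends on this spread as well as on the difference. The unmethylated share was 31.1% at 50 µg/L, which is 2.41 times the 12.9% in control and 4.03 times the 7.72% at 100 µg/L. Both comparisons use the same 50 µg/L libraries, so they do not give separate evidence that this group is low.

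How far the libraries of each group spread at atp8b5a can be bounded, because both F statistics contain the 50 µg/L libraries. If F was computed on the levels printed and on the same 3 libraries at 50 µg/L, the SD in control was between 6.45 and 7.40 points. On the same terms it was at most 4.45 points at 50 µg/L and at most 3.63 points at 100 µg/L. On these terms the control libraries varied more among themselves than those of either dose at this fragment. Its level at 100 µg/L exceeded control by 5.20 points, and the SE of that gap was between 3.23 and 4.12 points. The 95% interval of the gap held 0 under both bounds, running from −4.89 to 15.3 points at its widest. A small gap is partly fixed for a fragment listed in both tables with 50 µg/L and not for 100 µg/L against control.

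The atp8b5a fragment lies on chromosome 5 at 21062421 to 21062507, in an intron of a gene spanning 21044734 to 21079577. It has 87 bp and 4 CpG sites, and its place is near the middle of the gene, at 50.9% of a span of 34.8 kb. The CpG island listed for it is 323 kb from the fragment, measured to the island's farther edge. Of the 153 fragments, 12 had a larger listed distance, and a listed island need not be the nearest.

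The gene cacna2d2 encodes the α2δ-2 auxiliary subunit of voltage-gated calcium channels, which in mouse is needed for normal cerebellar function. In the authors' deposited table its fragment was methylated at 44.0% in 4 libraries at 100 µg/L, against 60.4% in 3 control libraries. The loss was 16.4 points, with an implied SE of 4.23 points and a 95% interval of −27.2 to −5.50 points. The implied SD between libraries of 5.54 points was close to the median of 5.52 points over the 17 fragments listed for that comparison. Of those 17, 9 had a larger difference, and the fragment had no listed level at 50 µg/L.

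The cacna2d2 fragment lies on chromosome 6 at 53574316 to 53574433, in an intron, and holds 4 CpG sites in 118 bp. That is 3.39 CpG sites per 100 bp, the lowest density of the 5. The gene, at 53453187 to 53841950, spans 389 kb, the longest of all genes with a listed fragment inside them. The fragment is 121 kb from the end with the lower coordinate and 268 kb from the other end, and the authors' deposited table measures from the end with the higher coordinate. The CpG island listed for it, at 53841529 to 53842312, straddles that farther end of the gene.

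TRPC7 channels are opened by diacylglycerol, as known from mammals, and pass calcium. In the authors' deposited table the fragment assigned to TRPC7 (3 of 4) was methylated at 91.6% in 3 libraries at 100 µg/L, against 74.8% in 3 libraries at 50 µg/L. The gain was 16.9 points, with an implied SE of 2.96 points and a 95% interval of 8.66 to 25.1 points. Its implied SD between libraries, 3.63 points, was below the median of 6.40 points over the 99 fragments of that comparison.

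The fragment assigned to TRPC7 (1 of 4) was methylated at 69.1% in 4 libraries at 100 µg/L, against 53.7% in 3 libraries at 50 µg/L, according to the authors' deposited table. The gain of 15.45 points had an implied SE of 6.06 points and a 95% interval of −0.128 to 31.0 points, which holds 0. Its implied SD between libraries was 7.93 points, more than at TRPC7 (3 of 4), and 97 of the 99 fragments had a smaller unadjusted p in the authors' deposited table. The interval of the gain at TRPC7 (3 of 4) lay wholly inside that at TRPC7 (1 of 4). Neither fragment had a listed level in control, so which dose departed from control cannot be read from the tables.

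**Figure D3:**
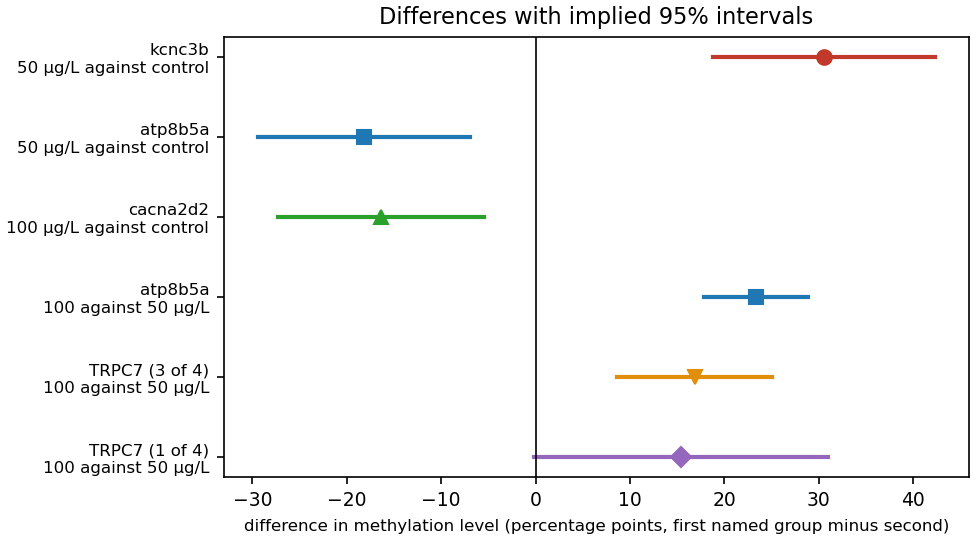
Difference in methylation level in percentage points (x axis) for the 6 entries (rows), with bars for the 95% intervals implied by the authors' F statistics; a positive value means higher in the group named first. The bar of TRPC7 (1 of 4) runs from −0.128 to 31.0 and crosses 0, and the other 5 do not.

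Both TRPC7 fragments lie outside the genes they were assigned to. The one assigned to TRPC7 (3 of 4), on chromosome 14 at 1405863 to 1405938, is 10.1 kb from a gene listed at 1416001 to 1418318, a span of 2.32 kb. The one assigned to TRPC7 (1 of 4), on chromosome 10 at 21322104 to 21322255, is 154 kb from a gene at 21476476 to 21510402. In units of the span of the assigned gene, these distances are 4.34 and 4.55 gene lengths. The units differ, as the listed span is 2.32 kb for TRPC7 (3 of 4) and 33.9 kb for TRPC7 (1 of 4). Whether the shorter span holds the whole gene was not tested. For TRPC7 (1 of 4) a CpG island of 5578 bp lies between fragment and gene. Its nearer edge is 60.9 kb from the fragment's lower coordinate. For TRPC7 (3 of 4) an island of 919 bp lies on the side away from the gene, with its farther edge 13.6 kb from the fragment.

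**Figure D4:**
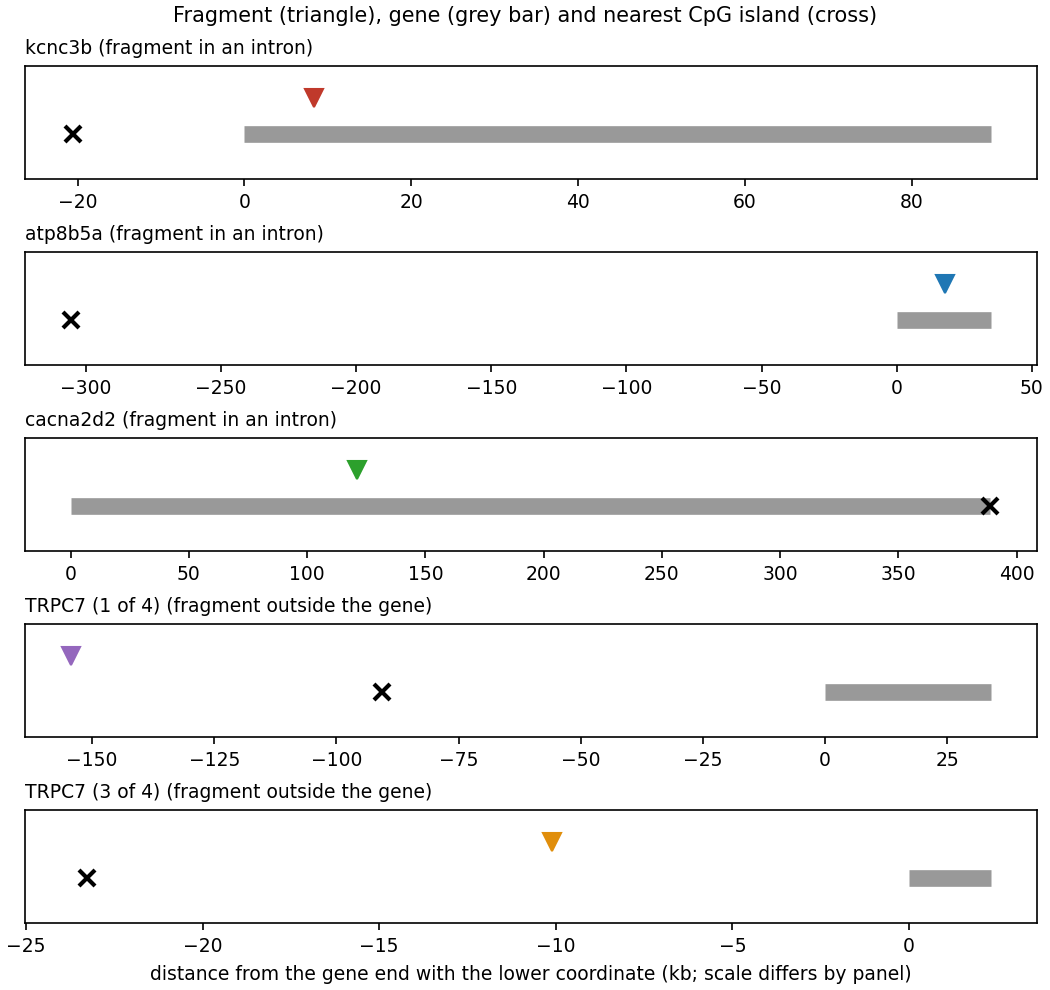
Position of each fragment (triangle) and of the centre of the CpG island listed for it (cross) beside the assigned gene (grey bar), as distance in kb from the gene end with the lower coordinate (x axis, with a scale of its own in each panel). The title in the picture calls the cross the nearest island, but a listed island need not be the nearest. The kcnc3b, atp8b5a and cacna2d2 fragments lie within the gene, and both TRPC7 fragments lie outside it, at 154 and 10.1 kb.

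Direction is not given for any of the 5 genes, so a fragment near a gene end cannot be placed at a promoter. The label 5′ went with the lower coordinate at 91 of 91 entries that carry it and the label 3′ with the higher coordinate at 80 of 80 (within 2 bp), whatever the gene. Of the 5 fragments, 0 lay on an exon, 3 lay in an intron (60.0%, against 29.4% of all 153) and 2 lay outside a gene. Lengths ran from 76 to 213 bp with a median of 118 bp, against 101 bp over all 153, and the median number of CpG sites was 5 in both sets. With so few fragments, these shares are counts only and set nothing apart from the other listed fragments.

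Read against all listed fragments, the directions were mixed. For 50 µg/L against control, 1 of the 2 entries was higher and 1 lower, where 41.8% of the 55 were higher and 58.2% lower. The single entry for 100 µg/L against control was lower, as were 52.9% of the 17. For 100 against 50 µg/L, 3 of 3 entries were higher, where 64.6% of the 99 were, and their median difference was 16.9 points, against a median absolute difference of 17.2 points over the 99. The implied 95% interval left out 0 at 2 of these 3, where it did so at 97.0% of the 99, and at 5 of the 6 entries in all. In the other comparisons it left out 0 at 100% of the 55 and 100% of the 17. The authors' deposited table for 100 against 50 µg/L holds a threshold on p for each rank, which 2 of the 3 met, atp8b5a and TRPC7 (3 of 4), as did 33.3% of the 99. Differences of at least 20 points were 1 of 2 entries for 50 µg/L against control, 0 of 1 for 100 µg/L against control and 1 of 3 for 100 against 50 µg/L, where 16.4%, 17.6% and 23.2% of all listed fragments were as large. Of the 4 libraries at 50 µg/L, 3 were used at all 5 entries that involve that group, as at 46 of the 55 and 87 of the 99 entries of those tables, and which library was left out is not given.

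**Figure D5:**
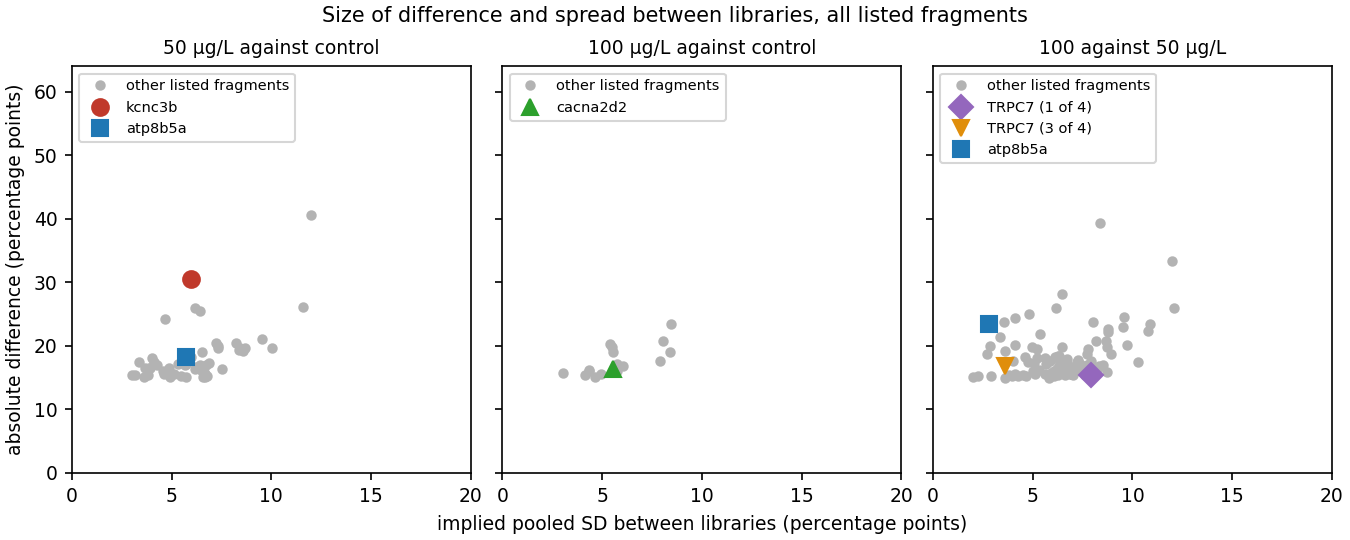
Absolute difference in percentage points (y axis) against the pooled SD between libraries implied by F, in percentage points (x axis), for every listed fragment of the 3 comparisons, with entries of the 5 genes in colour. For 100 against 50 µg/L, atp8b5a has an SD of 2.81 points beneath a difference of 23.4 points, and TRPC7 (1 of 4) has 7.93 points beneath 15.45.

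The order of the 6 entries by size depended on the scale. In percentage points kcnc3b was first with 30.6, whereas on the odds scale atp8b5a between both doses was first, with an odds ratio of methylation of 5.40 at 100 over 50 µg/L. TRPC7 (3 of 4) followed with 3.70 and kcnc3b, at 50 µg/L over control, with 3.56. Next by size came 0.329 at atp8b5a for 50 µg/L over control, then 0.516 at cacna2d2 for 100 µg/L over control. Last was 1.93 at TRPC7 (1 of 4). A ratio under 1 marks a loss, and its size is that of its inverse. Levels near 100% weigh more on that scale, and atp8b5a and TRPC7 (3 of 4) had the highest levels of the 4 fragments with a listed level at 100 µg/L.

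Other genes of ion channels, flippases and ion pumps were looked for through 10 lists of name starts. These covered potassium, calcium, sodium and chloride channels, TRP channels, ligand-gated, intracellular and mechanosensitive channels, gap junctions, flippases and ion pumps. Other transporters, such as solute carriers, were not covered. The potassium channel list held kcnc3b, the calcium channel list cacna2d2, the TRP list both TRPC7 copies, and the flippase list atp8b5a. The other 6 lists held 0 of the 171 entries. How many genes of these lists had a fragment that could have been listed is not known, so the 0 cannot be set against an expectation.

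Fragments whose listed levels were most like those of the 5 were found by the distance between the group levels of a comparison, in percentage points. For TRPC7 (1 of 4) this was a fragment assigned to CDH12 (1 of 2), at 68.9% at 100 µg/L and 53.6% at 50 µg/L, according to the authors' deposited table, a distance of 0.219 points, followed by CABZ01063034.1 at 1.19 points. For cacna2d2 it was casz1, at 43.8% at 100 µg/L and 59.4% in control in the authors' deposited table, a distance of 0.987 points, followed by nfe2l1a at 2.82 points. For kcnc3b the nearest were ppp4r2a and irx1a, at 10.5 and 10.7 points, the largest nearest distances among the 6 entries.

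For TRPC7 (3 of 4) the nearest were a si:ch211-207c6.10 fragment (chromosome 5, 43941815 to 43941871) at 3.29 points and si:dkey-193c22.1 at 3.47 points. For atp8b5a between both doses they were si:dkey-193c22.1 at 2.56 and another si:ch211-207c6.10 fragment (43941609 to 43941814) at 3.40 points, and for 50 µg/L against control that same fragment at 1.77 and CABZ01089223.1 at 2.44 points. That fragment, 22.9 Mb from atp8b5a on chromosome 5 and like it listed in both tables, had 88.8% in control, 69.4% at 50 µg/L and 88.9% at 100 µg/L, according to the authors' deposited tables. Over all 3 groups it lay 3.80 points from atp8b5a, and the next of the 14 others listed in both tables lay 17.1 points away. That distance also counts how high the levels are. The next one, RNF207 (2 of 2), dipped too, with 79.0% in control, 59.0% at 50 µg/L and 80.8% at 100 µg/L. Of all 15 fragments listed in both, 50 µg/L had the lowest level at 8 and the highest at the others. A dip at 50 µg/L was thus not particular to atp8b5a. These likenesses rest on 2 or 3 group levels. The nearest other listed fragment on the same chromosome lay between 0.978 Mb (from cacna2d2) and 6.96 Mb (from atp8b5a) away.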

How the data were processed

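Per the labels' protocols, genomic DNA from pools of 24 larvae was cut with MspI, fragments of 40 to 220 bp were selected, and 12 libraries were read from one end for 100 bp. Coordinates are on Zv9, the build in the submitters' processing notes. For the aligner, the methylation caller, coverage limits and how many fragments were tested, the sources used here give nothing. The authors deposited 3 tables, 1 per pair of groups, with each group's methylation level as a fraction, printed here as percent, an F statistic and an unadjusted p-value. Columns were read by position, because 1 header lies a column to the left of its values. The listed difference equalled the gap of the levels within 0.01 points in 171 of 171 entries.

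Differences are signed as 50 µg/L minus control, 100 µg/L minus control and 100 minus 50 µg/L. The SE is the difference divided by the square root of F, and 95% intervals come from the t distribution at the degrees of freedom the tables give, so both assume that F rests on the printed levels. Simulated data were used to check the arithmetic from F only (scipy 1.17.1). The simulated fragments were not selected by p or difference, so how often intervals of listed fragments hold the true difference was not tested. The authors chose which fragments to list from these same libraries, which can make errors too small and differences too large on average. Libraries are separate pools, and the labels do not say whether they came from separate clutches. The genes and lists were chosen with earlier results of these data known. Named genes were the 5 genes, any entry on the lists of name starts, and the 2 entries of the same table nearest in level to each. For atp8b5a, the 2 fragments nearest over all 3 groups were named as well. Of the 5 names, 2 matched current symbols as spelled. The name cacna2d2 is a RefSeq synonym of cacna2d2a, and RefSeq lists trpc7a and trpc7b, without a link to the copies named here.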

Additional observations from a re-analysis of the deposited data

Results flagged for a closer look

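At atp8b5a, the difference between the effects of both doses against the shared control, which equals 100 minus 50 µg/L, was 23.4 points (SE 2.15), with an unadjusted p of 0.000114 from the authors' F test in the authors' deposited table. The level at 100 µg/L was 5.20 points above control, and that at 50 µg/L was 18.2 points below it. The gene was grouped by function from lists that already rested on these levels, and its fragment was listed in both comparisons. These share the 50 µg/L libraries, so the test is not separate evidence that the responses differ.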

How the results depend on the processing

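With 99% in place of 95% intervals, the difference of −16.4 points at cacna2d2 no longer left out 0 (−33.4 to 0.678), and with the normal in place of the t distribution the gain of 15.45 points at TRPC7 (1 of 4) did (3.57 to 27.3); in these settings the interval left out 0 at 4 and 6 of the 6 entries, and at 63 and 171 of all 171, against 5 of 6 and 168 of 171 with the 95% t interval. These alternatives change the width of an interval and leave the difference as it is. A minimum difference of 20 points kept 2 of the 6 entries, kcnc3b and atp8b5a between both doses. Of all listed fragments, it kept 16.4% for 50 µg/L against control, 17.6% for 100 µg/L against control and 23.2% for 100 against 50 µg/L. Of the 3 entries for 100 against 50 µg/L, 2 had an adjusted p (Benjamini-Hochberg) of at most 0.05, as had 33 of all 99, and 3 of at most 0.1, as had 99 of 99, with the 184 tests that the threshold per rank implies if it stands for 0.05. The adjusted p was 0.0101 at atp8b5a, 0.0332 at TRPC7 (3 of 4) and 0.0963 at TRPC7 (1 of 4). These values hold only under that reading of the threshold. If it stood for 0.1, it would imply 368 tests, and each adjusted p would be larger. The thresholds follow the ranks within the 99 listed fragments without a gap, and all 99 differ by at least 15 points. The 184 may thus count only fragments already selected by size of difference. The adjusted p-values would then correct within that selection only. How many fragments were assayed is not known, so no adjustment over all of them could be made. The genes were chosen with these results known, so the adjusted p-values are a description and not independent evidence. Matching by gene family gave the same number of 6 entries. Keeping fragments inside a gene or within 10 kb left 3 of 5, all inside their genes, where 59 of all 153 lay inside a gene. The share of all 153 within that limit was not computed. TRPC7 (3 of 4), at 10.064 kb, fell just beyond the limit, so this count depends on the exact cut. The odds scale, chosen after seeing the data, put kcnc3b in place 3 of 6 by size rather than 1. Leaving out a replicate could not be done, since the tables hold group levels. No paired analysis was possible because the tables hold no values per library. Unknown read depth limits every level.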
